A study of Homo sapiens with 6 samples.

Results

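The data cover 38 genes of fatty acid metabolism, 22 of synthesis and lipid assembly and 16 of beta-oxidation, out of 20503 genes in the deposited table. They were chosen by gene symbol, as enzymes, carriers and regulators of these pathways, and all 38 had a row. The study profiled poly(A)-selected RNA of T47D, a breast cancer line described as ER-positive, and of its tamoxifen-resistant subline T47D-TR, in 3 libraries each. T47D-TR was kept in medium with 1 µM 4-hydroxytamoxifen, a metabolite through which tamoxifen acts on oestrogen receptors. Both cultures grew in DMEM with 10% fetal bovine serum, so serum lipids were present in both. The subline and the drug changed together and cannot be told apart. Separate cultures are not named in the labels for the 3 libraries of either group, so p-values reflect the spread among these libraries alone, and that spread may be technical. In bulk RNA, a change in the share of expressing cells and a change in the level per cell cannot be told apart.

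Fatty acids are built in the cytosol from acetyl-CoA, which is carboxylated to malonyl-CoA and then joined into palmitate with NADPH. Palmitate is lengthened, desaturated, coupled to CoA and esterified to glycerol. For breakdown, acyl chains cross into the mitochondrion as carnitine esters and are shortened in a repeating cycle of dehydrogenation, hydration, a further dehydrogenation and thiolysis. Malonyl-CoA, the substrate of synthesis, inhibits the entry step of oxidation. Many breast cancer lines express the synthesis enzymes at a high level.

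The 6 libraries held 17199315 to 19867230 counts, so that 3 counts correspond to 0.151 to 0.174 CPM (CPM are counts scaled to a common library size, here by the TMM method). Pearson's r of log2 CPM across genes was 0.990 to 0.994 within groups and 0.942 to 0.947 between them. The median size of a library's deviation from its group mean over all tested genes was 0.09 on the log2 scale in T47D-TR replicate 3 and 0.05 to 0.07 in the others, and over the 37 tested members it was 0.07 and 0.02 to 0.06. Several defining markers of luminal cells were low in both groups. ESR1, the oestrogen receptor gene, had 0 to 4 counts per library, GATA3 stood at 1.23 ± 0.140 and 0.625 ± 0.0774 CPM and CDH1 at 2.12 ± 0.742 and 5.50 ± 2.40 CPM (T47D and T47D-TR, SD, n = 3). Of 15 luminal markers in the table, 13 were above 1 CPM in T47D and 12 in T47D-TR, and all 9 listed genes of mesenchymal or basal-like lines were above 1 CPM in both. GATA3 in T47D and CDH1 in both groups also passed that mark. KRT8 stood at 1338 and 1580 CPM, KRT18 at 683 and 928, XBP1 at 61.0 and 156 and TFAP2A at 110 and 112. Of the 9 mesenchymal or basal-like genes, VIM stood at 770 and 1297 CPM, CD44 at 488 and 721 and EGFR at 140 and 289. FN1, at 5.19 and 55.3 CPM, was the lowest of them in T47D. AXL was lower in T47D-TR, at 195 and 117 CPM, and CAV1 stood at 319 and 304. ZEB1 stood at 33.2 and 38.8 CPM, CDH2 at 60.2 and 69.2 and SNAI2 at 12.7 and 14.5. Markers of other cell types also differed between the groups. The summed level of 3 endothelial markers lay between 0.6999 and 1.02 CPM in the T47D libraries and between 23.6 and 31.3 in those of T47D-TR, nearly all of it PECAM1 (0.669 ± 0.0287 and 27.3 ± 3.81 CPM), with VWF at 0 to 4 counts per library. For 5 immune markers the sums were 23.9 to 27.6 and 57.3 to 75.7 CPM, mostly CD68 (23.7 ± 1.92 and 64.6 ± 9.17 CPM), with PTPRC at 0 to 2 counts. For 8 fibroblast markers they were 36.6 to 39.97 and 20.4 to 26.9 CPM. LUM fell from 13.9 ± 1.81 to 0.253 ± 0.0873 CPM, while COL1A2, COL3A1 and DCN had 22, 37 and 19 counts in T47D-TR replicate 3 and at most 4 in any other library. No listed marker in the table was at 0 in all 6 libraries, and the part of these markers in the results on fatty acid genes was not tested. The groups are named by their labels only.

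Among the members, beta-oxidation genes were mostly higher in T47D-TR, whereas synthesis genes were divided. A gene is called higher or lower when edgeR's quasi-likelihood test gives a Benjamini-Hochberg adjusted p under 0.05 over all 15961 genes tested. Of the 16 oxidation genes 12 rose, 3 fell and 1 was not called. Of the 22 synthesis genes 21 passed the filter on low counts, of which 8 rose, 8 fell and 5 were not called. Over all genes tested, 63.0% were called, 32.5% higher and 30.5% lower. This balance turned with the scaling, from 5186 genes higher and 4867 lower to 4827 and 5298 with library size alone and 4361 and 5789 with quantile normalization. The oxidation genes were called higher in 75% and lower in 18.8% of cases, and the synthesis genes in 38.1% each way, which is close to the background. Among genes with a mean of at least 5 CPM the background was 34.7% higher and 35.8% lower. The median log2 fold change was 0.36 for oxidation, 0.05 for synthesis and 0.00 (0.0019) for all genes. Most changes were small: 15 of the 20 members that rose and 8 of the 11 that fell changed by less than 1.5-fold. The 3 libraries of one group lay all above or all below those of the other for 33 of the 37 tested members, 22 higher and 11 lower in T47D-TR, against 34.6% and 33.8% of all genes tested. At 1.5-fold or more, 17.8% of all genes were called higher and 10.2% lower.

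**Figure D1:**
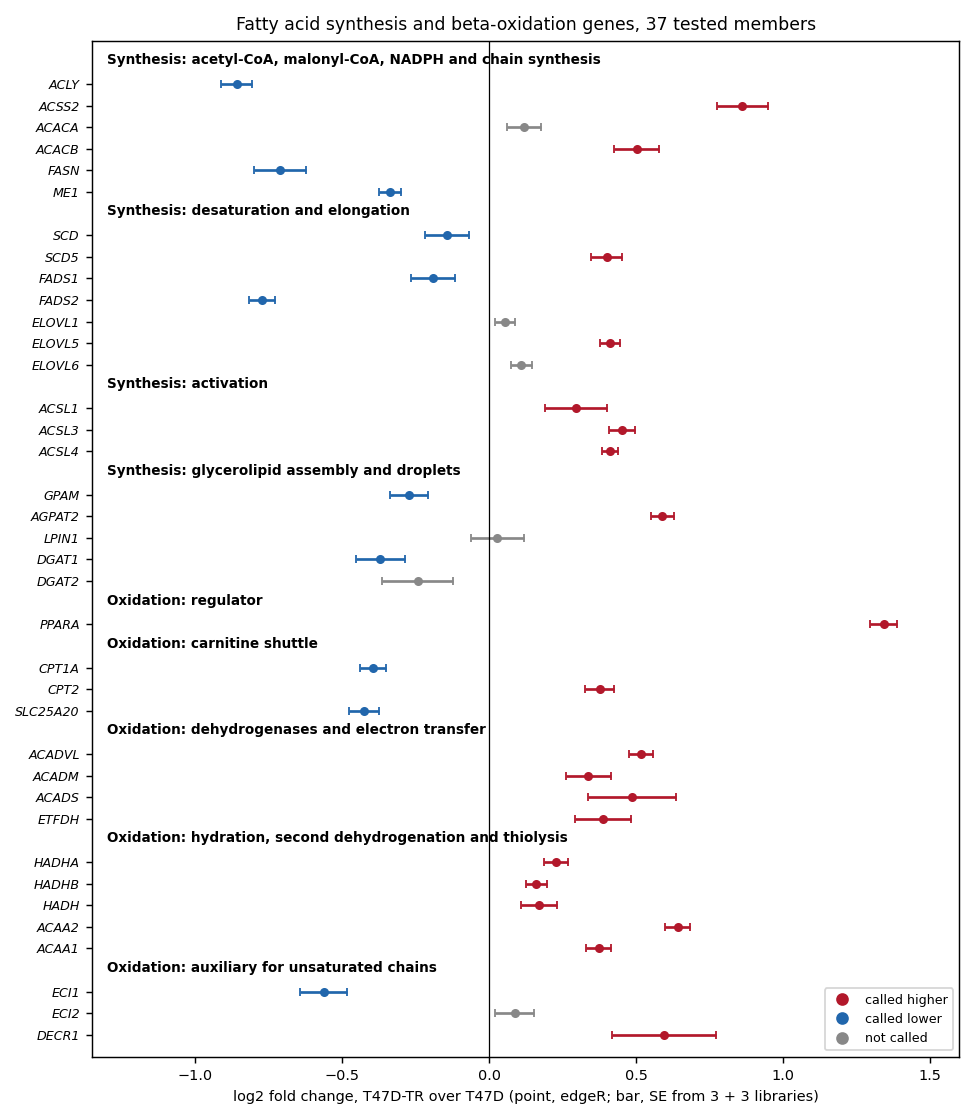
Log2 fold change (T47D-TR over T47D, horizontal axis) of the 37 tested members, grouped by role, with the SE over 3 libraries per group as bars. ACLY (-0.86), FADS2 (-0.77) and FASN (-0.71) lie farthest to the left and PPARA (1.34) farthest to the right, and all 9 genes of the dehydrogenase and thiolysis groups lie to the right of 0.

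Promoter stretches of 3 genes are shown because their genes stand at the ends and the middle of these changes: ACLY fell, PPARA rose most, and SCD, the member with the most counts, changed little. They come from the RefSeq promoter table for GRCh38.p14, are written 5′ to 3′ on the strand of the gene and leave out any base that lies in a GENCODE exon. Capitals mark CCAAT, or its reverse complement ATTGG, the box bound by NF-Y.
ACLY, chr17:41919023-41919272, minus strand: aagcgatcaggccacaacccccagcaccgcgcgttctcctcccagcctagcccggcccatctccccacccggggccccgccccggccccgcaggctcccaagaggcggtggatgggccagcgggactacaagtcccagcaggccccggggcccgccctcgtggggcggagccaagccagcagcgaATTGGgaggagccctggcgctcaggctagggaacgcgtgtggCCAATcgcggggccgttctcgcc
SCD, chr10:100346983-100347123, plus strand: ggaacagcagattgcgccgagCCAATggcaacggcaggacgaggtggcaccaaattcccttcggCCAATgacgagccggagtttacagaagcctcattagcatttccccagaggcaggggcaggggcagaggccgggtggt
PPARA, chr22:46150276-46150520, plus strand: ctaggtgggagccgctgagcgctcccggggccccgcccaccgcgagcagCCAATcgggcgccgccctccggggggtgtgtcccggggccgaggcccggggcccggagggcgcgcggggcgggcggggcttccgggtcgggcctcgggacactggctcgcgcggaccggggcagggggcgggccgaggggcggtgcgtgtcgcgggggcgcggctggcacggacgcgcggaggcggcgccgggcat
The ACLY stretch ends just before the transcript start at 41919022, which lies inside the full span of the gene (chromosome 17, 41866917 to 41930545), so the annotated gene extends upstream of it. The box was found in 2 places in ACLY, which fell, 2 in SCD, which changed little, and 1 in PPARA, which rose. It was found in 0 places in the promoter of FADS2, which fell as well (log2 -0.77) and is not shown. The table had promoters for 32 of the 38 members, each of 300 bases, from 250 before to 50 after the start. On both strands, CCAAT was found in 8 of 19 synthesis promoters, in 2 of 13 oxidation promoters and in 35.7% of all 27305 promoters. TCACNCC, the core of the sterol regulatory element, was found in 4 of 19 and 5 of 13, against 15.2% of all. CACGTG, an E-box that USF proteins bind, was found in 2 of 19 and 0 of 13 (7.43% of all), and AGGTCA, the repeat unit of PPAR response elements, in 1 of 19 and 0 of 13 (13.9% of all). Over the 10491 promoters of tested genes the shares were 36.3% for CCAAT, 15.9% for TCACNCC, 10.1% for CACGTG and 9.96% for AGGTCA. In the member promoters 0 matches of one of these 4 motifs overlapped a match of another, and CACGTG, which reads the same on both strands, was counted once per position. By direction, TCACNCC was found in 4 of the 9 promoters of members that fell and in 4 of the 17 of members that rose, CCAAT in 3 and 6, CACGTG in 0 and 1, and AGGTCA in 0 and 0. These matches are letters in a window, not binding sites.

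RNA of the enzymes that supply cytosolic acetyl-CoA changed in opposite directions. ACLY, which makes acetyl-CoA from citrate, had 12078, 12169 and 11502 counts in the T47D libraries and 6973, 6963 and 5493 in the T47D-TR libraries. Its mean fell to 347 ± 19.3 CPM from 630 ± 18.1 (log2 fold change -0.86 ± 0.05, SE, adjusted p by edgeR = 1.2e-08). ACSS2, which makes acetyl-CoA from acetate, had 486, 519 and 499 counts in T47D and 945, 1029 and 722 in T47D-TR. It rose from 26.5 ± 0.291 to 48.1 ± 4.92 CPM (log2 0.86 ± 0.09, adjusted p by edgeR = 8.9e-07). The groups did not overlap for either gene, and the changes were alike in size on the log scale and opposite in sign. Divided by exon length, ACLY stood at 121 CPM per kb and ACSS2 at 4.92 in T47D, and at 66.6 and 8.93 in T47D-TR, so ACLY was the higher of the pair in both groups. ME1, the cytosolic malic enzyme that supplies NADPH, fell from 96.4 ± 1.37 to 76.3 ± 3.39 CPM (log2 -0.34).

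FASN, the synthase that assembles palmitate (chromosome 17, 82078338 to 82098236), fell, while neither acetyl-CoA carboxylase gene was called lower. FASN had 9090, 9153 and 8175 counts in T47D and 5925, 5630 and 4350 in T47D-TR, with no overlap. It fell from 465 ± 25.8 to 284 ± 24.9 CPM (log2 -0.71 ± 0.09, adjusted p by edgeR = 7.2e-07). ACACA, the cytosolic acetyl-CoA carboxylase, had 4096, 4037 and 3878 counts in T47D and 4702, 4480 and 3661 in T47D-TR. Its CPM ranges overlapped (206 to 221 against 217 to 244), and the log2 fold change of 0.12 ± 0.06 was not called (adjusted p by edgeR = 0.058). Without T47D-TR replicate 3, its lowest T47D-TR library, ACACA was called at 0.16 (adjusted p by edgeR = 0.00087), and without T47D-TR replicate 1 it was 0.07 (0.25). It was also called with quantile normalization (0.17, limma adjusted p = 0.014). The same held among genes with a mean of at least 5 CPM (0.13, edgeR adjusted p = 0.035) and with the replicate number as a block (0.12, 0.041). With library size alone it was not called (0.08, edgeR adjusted p = 0.19). ACACB, the carboxylase at the mitochondrial surface whose malonyl-CoA restrains acyl-carnitine formation, had 160, 185 and 176 counts in T47D and 251, 236 and 236 in T47D-TR. It rose from 9.17 ± 0.480 to 13.01 ± 0.971 CPM (log2 0.50 ± 0.08, and 0.32 with quantile normalization). The log2 ratio of ACACA to ACACB counts went from 4.53 ± 0.13 to 4.14 ± 0.16 with no overlap between the groups. Per length, ACACA stood at 16.3 and 17.7 CPM per kb in T47D and T47D-TR and ACACB at 0.632 and 0.897.

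Among the desaturases, each pair changed unequally. SCD, the main stearoyl-CoA desaturase, which makes monounsaturated chains, was the member with the most counts, with 26.1% to 26.5% of all synthesis counts in the T47D libraries and 26.0% to 27.7% in those of T47D-TR. Its CPM values were 863, 826 and 827 in T47D and 800, 790 and 687 in T47D-TR, a fall of small size (log2 -0.14 ± 0.07, adjusted p by edgeR = 0.032). The call ended without any one of the T47D replicates 1, 2 and 3 (adjusted p = 0.115, 0.061 and 0.063), and without T47D-TR replicate 3 the log2 fold change was -0.08. SCD5, the second gene of this activity, had CPM values of 30.5, 32.6 and 34.2 in T47D and 41.7, 42.9 and 43.9 in T47D-TR and rose (log2 0.40 ± 0.05). Between SCD and SCD5 the log2 ratio was 4.69 ± 0.12 in T47D and 4.14 ± 0.15 in T47D-TR, with no overlap.

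FADS1 and FADS2 encode the desaturases of polyunsaturated chains and lie head to head on chromosome 11. FADS2 had 811, 840 and 761 counts in T47D and 500, 470 and 416 in T47D-TR. It fell from 42.5 ± 1.5 to 24.8 ± 0.994 CPM (log2 -0.77 ± 0.04, adjusted p by edgeR = 4.6e-07). FADS1 fell less, from 111 ± 1.91 to 97.2 ± 8.35 CPM (log2 -0.19 ± 0.07, adjusted p by edgeR = 0.014), and without T47D replicate 1 its adjusted p was 0.057. Without T47D-TR replicate 3 the log2 fold change of FADS1 was -0.12. For FADS1 over FADS2 the log2 ratio was 1.36 to 1.42 in T47D and 1.84 to 2.05 in T47D-TR. Exons of the 2 genes share 490 bases on opposite strands, and no source used here gives the strand setting of the counting, so reads from that stretch cannot be told apart.

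Of the elongases, ELOVL5, which lengthens polyunsaturated chains, rose and the others were not called. Its counts were 2826, 3078 and 2879 in T47D and 3877, 4205 and 3393 in T47D-TR, and it rose from 155 ± 2.65 to 205 ± 7.77 CPM (log2 0.41 ± 0.03, adjusted p by edgeR = 5.3e-06). ELOVL6, which lengthens palmitate, had 1836, 1926 and 1848 counts against 2063, 2002 and 1872, at 98.8 ± 0.269 and 107 ± 4.39 CPM. Its groups did not overlap, yet the log2 fold change of 0.11 was not called (adjusted p by edgeR = 0.061). Without T47D-TR replicate 2 it was called (0.14, adjusted p = 0.027), and with library size alone it was 0.07 (0.20). ELOVL1, which acts on very long saturated chains, stood at 62.7 ± 2.38 and 65.1 ± 0.750 CPM (log2 0.05, adjusted p by edgeR = 0.37).

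All 3 acyl-CoA synthetase members rose, each by less than 1.5-fold, where 32.5% of all genes tested were called higher. These enzymes couple a free fatty acid to CoA, which both lipid assembly and oxidation require. ACSL3, which is found at lipid droplets and the endoplasmic reticulum, had 1981, 2167 and 2144 counts in T47D and 2914, 3095 and 2461 in T47D-TR (log2 0.45 ± 0.05). ACSL4, which prefers arachidonate and other polyunsaturated chains, went from 93.8 ± 0.545 to 125 ± 4.07 CPM (log2 0.41 ± 0.03). ACSL1 had CPM values of 23.2, 21.3 and 19.6 in T47D and 23.5, 27.9 and 27.3 in T47D-TR, ranges that nearly touched. Its call (log2 0.30 ± 0.10, adjusted p by edgeR = 0.011) ended without T47D replicate 3 (0.062) and with quantile normalization (limma adjusted p = 0.067). ACSL3 and ACSL4 had a log2 ratio of 0.24 ± 0.05 and 0.28 ± 0.01, with overlapping groups.

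Glycerolipid assembly had changes in both directions along one pathway. GPAM, which adds the first acyl chain to glycerol phosphate, fell from 44.7 ± 3.04 to 37.0 ± 1.47 CPM (log2 -0.27). AGPAT2, which adds the next, had 1000, 1012 and 994 counts in T47D and 1502, 1522 and 1412 in T47D-TR. It rose from 53.0 ± 1.08 to 79.7 ± 3.39 CPM (log2 0.59 ± 0.04, adjusted p by edgeR = 9.0e-07). LPIN1, the phosphatase that makes diacylglycerol, had CPM values of 57.7, 56.6 and 56.3 against 60.0, 62.6 and 51.0 and was not called (log2 0.03 ± 0.09, a sign that turned under other scalings). Of the acyltransferases that complete triacylglycerol, DGAT1 fell from 19.3 ± 1.83 to 14.9 ± 0.556 CPM (log2 -0.37). DGAT2 had 171, 188 and 146 counts in T47D and 131, 147 and 140 in T47D-TR, with overlapping CPM ranges, and was not called (log2 -0.24 ± 0.12, adjusted p by edgeR = 0.10). Without T47D-TR replicate 3 DGAT2 was called (-0.31, adjusted p = 0.029), as with quantile normalization (-0.45, limma adjusted p = 0.0070).

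PLIN2, which coats lipid droplets (chromosome 9, 19108388 to 19127492), was the only member removed by the filter on low counts. It had 3, 4 and 4 counts in T47D and 10, 9 and 8 in T47D-TR, at most 0.518 CPM, which is the lowest level of all 38 members per length (0.0380 and 0.0951 CPM per kb). Without that filter its log2 fold change was 1.29 (adjusted p by edgeR = 0.041). HAUS6, the neighbouring gene on the same strand, which belongs to a mitotic complex and was named after its values were seen, had 1600, 1737 and 1705 counts in T47D and 4283, 4754 and 2910 in T47D-TR. GENCODE release 29 shows no exon of another gene over PLIN2 on either strand. Whether the counting assigned reads between these neighbours was not tested.

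**Figure D2:**
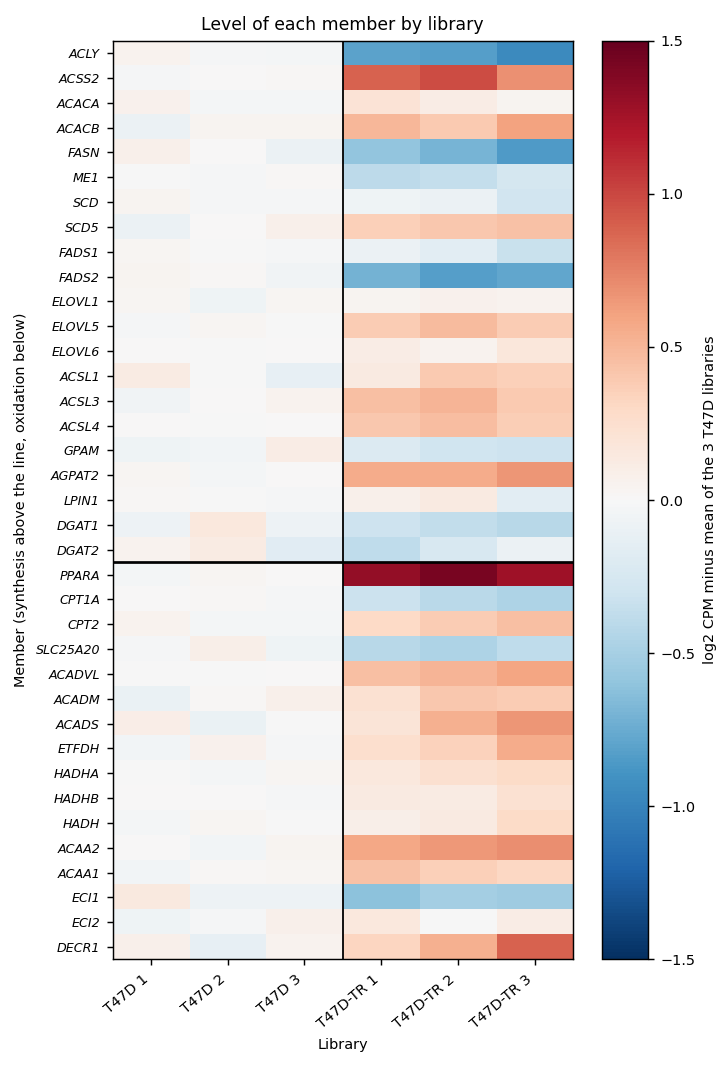
Level of each of the 37 tested members (rows) in each of the 6 libraries (columns), as log2 CPM minus the mean of the 3 T47D libraries; blue is lower and red higher. The 3 T47D-TR columns share the same sign for most rows, and the block of red rows from ACADVL to ACAA1 contrasts with blue rows for CPT1A and SLC25A20 above it.

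PPARA, the fatty acid-activated nuclear receptor that induces oxidation genes in liver, rose most of all members. It had 279, 305 and 286 counts in T47D and 737, 807 and 626 in T47D-TR (chromosome 22, 46150526 to 46243756). Its level went from 15.3 ± 0.288 to 38.8 ± 2.11 CPM, 2.53-fold (log2 1.34 ± 0.05, adjusted p by edgeR = 9.0e-09). Every T47D-TR library stood above every T47D library, as for 68.3% of all tested genes in one direction or the other and 34.6% in this direction.

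The carnitine shuttle was divided. CPT1A, which forms acyl-carnitines at the outer membrane and is the regulated entry step, had 1969, 2093 and 1946 counts in T47D and 1636, 1567 and 1292 in T47D-TR. It fell from 106 ± 1.40 to 80.4 ± 4.18 CPM (log2 -0.39 ± 0.04, adjusted p by edgeR = 2.3e-05). SLC25A20, the carrier that exchanges acyl-carnitine for carnitine across the inner membrane, had 549, 619 and 532 counts against 431, 424 and 387 and fell too (log2 -0.42 ± 0.05, adjusted p by edgeR = 0.00017). CPT2, which returns the acyl group to CoA inside the mitochondrion, had 545, 543 and 517 counts against 671, 721 and 651 and rose (log2 0.38 ± 0.05, adjusted p by edgeR = 0.00028). The log2 ratio of CPT1A to CPT2 was 1.85 to 1.95 in T47D and 0.99 to 1.29 in T47D-TR, the largest shift among the 12 gene pairs compared. The log2 ratio of FASN to CPT1A, synthase against entry enzyme, was 2.14 ± 0.07 in T47D and 1.82 ± 0.06 in T47D-TR, with no overlap.

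All 9 members that act in the oxidation cycle or take up its electrons rose, with log2 fold changes of 0.16 to 0.64 and a median of 0.37, where 32.5% of all genes tested were called higher. ACAA1 among them is peroxisomal. Mitochondrial oxidation genes outside the members were divided. ECHS1, a hydratase of the same cycle, fell (log2 -0.44), and HSD17B10 was called lower (-0.15, adjusted p by edgeR = 0.048). The HSD17B10 call ended without any single library other than T47D-TR replicate 3 (edgeR adjusted p = 0.051 to 0.206). It also ended by DESeq2 (0.072), without the filter (edgeR, 0.053), at a mean of at least 5 CPM (0.063) and with the replicate block (0.059). ETFA (-0.06), ACADSB (-0.22) and ACAD9 (-0.02) were not called, while ETFB (0.39), ACAD10 (0.47) and ACAD11 (0.78) rose. The set of 9 members was formed from their roles after their values were seen. Over the 14 alternatives 6 to 9 of them were called higher, with 6 without T47D replicate 2 or without T47D replicate 3. Of the acyl-CoA dehydrogenases, ACADVL, for very long chains, had 4083, 4314 and 4143 counts in T47D and 5810, 6164 and 5606 in T47D-TR (log2 0.52 ± 0.04, adjusted p by edgeR = 7.0e-07). ACADM, for medium chains, rose from 80.6 ± 4.98 to 102 ± 6.57 CPM (log2 0.34 ± 0.08). ACADS, for short chains, had only 45, 41 and 42 counts against 50, 65 and 61. Its call (log2 0.49 ± 0.15, adjusted p by edgeR = 0.041) ended without any single library other than T47D-TR replicate 1 (adjusted p = 0.061 to 0.12), with library size alone (0.055), by DESeq2 (0.157) and with quantile normalization (log2 0.27, limma adjusted p = 0.229). ETFDH, which passes the electrons to ubiquinone, rose from 29.2 ± 1.12 to 38.3 ± 4.16 CPM (log2 0.39 ± 0.09).

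HADHA and HADHB encode the subunits of the trifunctional protein, which hydrates, dehydrogenates and cleaves long chains. They lie head to head on chromosome 2, 306 bases apart. HADHA had 5379, 5615 and 5582 counts in T47D and 6273, 6762 and 5996 in T47D-TR, and HADHB had 1319, 1382 and 1306 against 1494, 1501 and 1396. HADHA rose by a log2 fold change of 0.23 ± 0.04 and HADHB by 0.16 ± 0.04 (adjusted p by edgeR = 0.00062 and 0.014). Their log2 ratio, 2.05 ± 0.04 in T47D and 2.11 ± 0.05 in T47D-TR, overlapped between the groups. GENCODE names 2 pseudogenes of HADHA, which could share its reads, and 1 each of the members SCD, FADS2 and SLC25A20, to which the same limit applies. HADH, the dehydrogenase for shorter chains, rose from 39.9 ± 0.764 to 44.9 ± 3.17 CPM (log2 0.17 ± 0.06, adjusted p by edgeR = 0.034). The HADH call ended without T47D replicate 1, 2 or 3 (adjusted p = 0.111, 0.070 and 0.092) or T47D-TR replicate 3 (0.091). It also ended by DESeq2 (0.096), with quantile normalization (0.125) and when scaled by library size alone (0.084). That of HADHB ended without T47D replicate 2 or 3 (0.054 and 0.055).

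ACAA2, the mitochondrial thiolase that ends each cycle, rose most within it (chromosome 18, 49782164 to 49813533). It had 1220, 1250 and 1258 counts in T47D and 1888, 2020 and 1797 in T47D-TR, going from 65.7 ± 1.74 to 102 ± 4.30 CPM (log2 0.64 ± 0.04, adjusted p by edgeR = 3.5e-07). ACAA1, the peroxisomal thiolase, had 363, 396 and 382 counts against 526, 506 and 421 and rose by less (log2 0.37 ± 0.04). For ACAA1 over ACAA2 the log2 ratio was -1.71 ± 0.05 in T47D and -1.98 ± 0.13 in T47D-TR. Exons of DLEC1 on the opposite strand cover 19.7% of the exon length of ACAA1, so that its counts are uncertain without a known strand setting, as are those of ECI2 (27.1%), CPT2 (11.01%) and ETFDH (10.9%) for the same reason.

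The auxiliary enzymes that prepare unsaturated chains for the cycle differed in direction. ECI1, the mitochondrial enoyl-CoA isomerase, had 349, 315 and 300 counts in T47D and 212, 232 and 197 in T47D-TR and fell (log2 -0.56 ± 0.08, adjusted p by edgeR = 0.00020). ECI2, an isomerase found also in peroxisomes, had 1031, 1124 and 1145 counts against 1254, 1131 and 1056, with overlapping CPM ranges, and was not called (log2 0.09 ± 0.07, adjusted p by edgeR = 0.23). DECR1, the dienoyl-CoA reductase, had 347, 317 and 343 counts in T47D and 428, 504 and 554 in T47D-TR. It rose from 17.8 ± 1.35 to 26.9 ± 5.41 CPM (log2 0.59 ± 0.18, adjusted p by edgeR = 0.0011), with a wider spread over T47D-TR libraries, relative to its mean, than any other tested member.

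Set against each other by library, the summed RNA level of synthesis genes relative to oxidation genes was lower in every T47D-TR library than in any T47D library. The summed level of the 22 synthesis genes was 3262, 3164 and 3138 CPM in T47D and 2890, 2864 and 2645 in T47D-TR, while that of the 16 oxidation genes was 1084, 1089 and 1106 against 1281, 1330 and 1383. The ratio of the sums was 2.84 to 3.01 in T47D and 1.91 to 2.26 in T47D-TR, and without ACLY and FASN it was 1.88 to 1.96 and 1.49 to 1.73. On the log scale, which gives each gene equal weight, mean log2 CPM of synthesis minus that of oxidation was 0.87, 0.88 and 0.85 in T47D and 0.69, 0.64 and 0.52 in T47D-TR. Without PPARA alone the difference was 0.78, 0.80 and 0.76 against 0.67, 0.62 and 0.49, with no overlap. Without ACLY, FASN, FADS2 and PPARA, left out after their values were seen, the difference was 0.49, 0.51 and 0.48 against 0.51, 0.48 and 0.35, and the groups overlapped. This removal was one-sided. It took out the largest falls in synthesis and the largest rise in oxidation, and kept the largest synthesis rises, ACSS2 and AGPAT2. The groups had to come closer by construction. No test was run on these sums, since the members are not replicates.

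**Figure D3:**
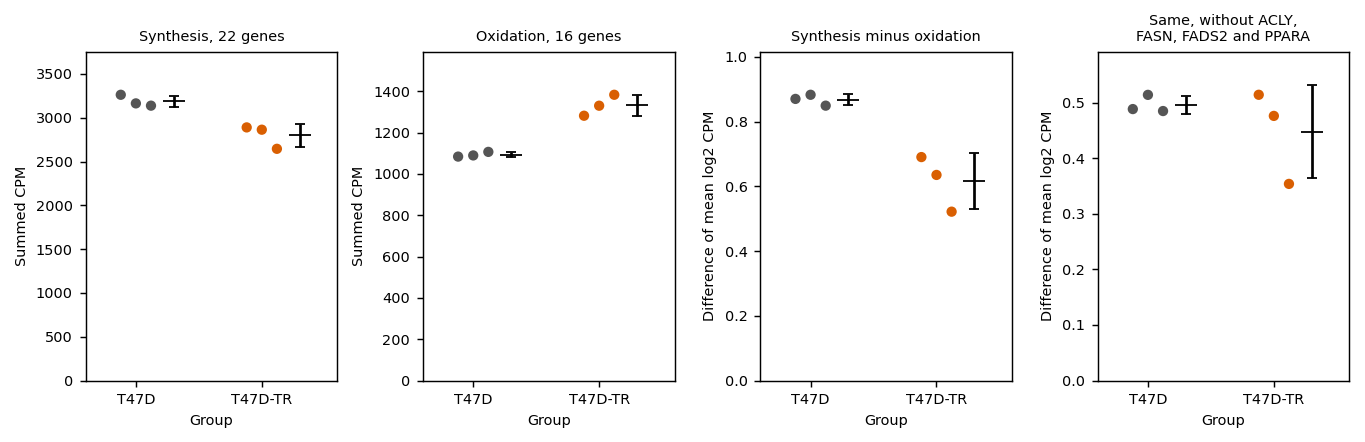
Each point is a library; bars give mean ± SD (n = 3 libraries). From left to right the vertical axes show summed CPM of synthesis genes, summed CPM of oxidation genes, the difference of mean log2 CPM, and that difference without ACLY, FASN, FADS2 and PPARA, which is 0.48 to 0.51 in T47D and 0.35 to 0.51 in T47D-TR.

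Levels per length placed SCD highest of all members in both groups, at 156 and 142 CPM per kb. ACLY came next in T47D (121 CPM per kb), followed by HADHA (66.6), FASN (49.7) and ACADVL (45.4). In T47D-TR HADHA was the second (77.9), followed by ACLY (66.6), ACADVL (64.9) and ELOVL5 (53.9), and FASN stood at the seventh place (30.3). Among oxidation genes HADHA and ACADVL led in both groups, while ACADS (0.852 and 1.20) and PPARA (1.16 and 2.94) were the lowest. These levels divide by the union of all exons in GENCODE release 29, which may differ from the annotation used for counting and lowers the value of genes with many isoforms.

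**Figure D4:**
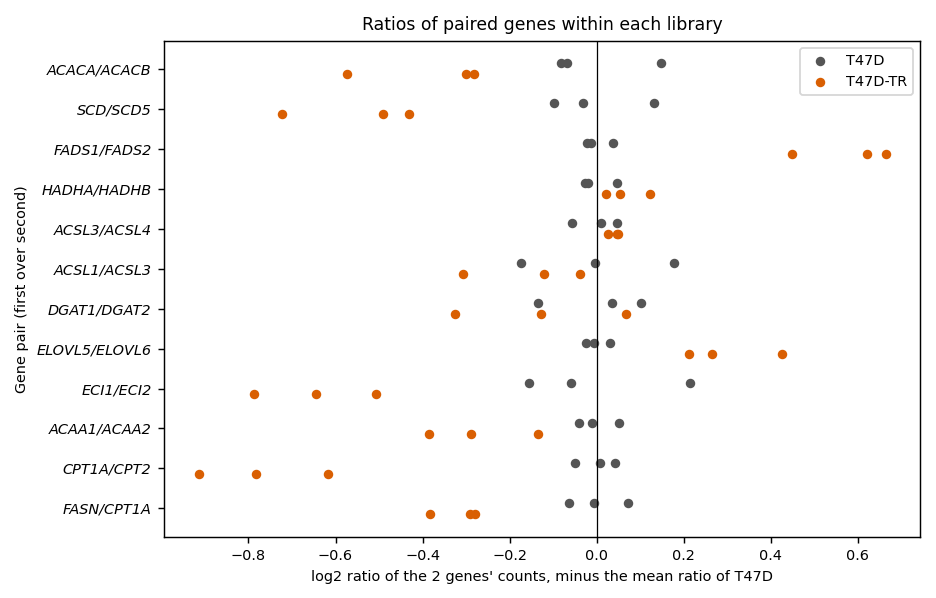
Log2 ratio of the counts of 2 genes within each library, minus the mean ratio of T47D (horizontal axis), for 12 pairs; grey is T47D and orange T47D-TR, 3 libraries each. The groups stand apart for 8 pairs, among them CPT1A over CPT2 and FADS1 over FADS2, and overlap for HADHA over HADHB, ACSL3 over ACSL4, ACSL1 over ACSL3 and DGAT1 over DGAT2.

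Other genes of the same pathways were followed in 7 lists. Of the SREBP and ChREBP control genes, 4 of 16 tested rose and 5 fell, near the 32.5% and 30.5% of all genes. SREBF1, which encodes the main SREBP of fatty acid synthesis, had 749, 816 and 717 counts in T47D and 1864, 1878 and 1722 in T47D-TR and rose (log2 1.29 ± 0.04, adjusted p by edgeR = 1.2e-09). INSIG1, a sterol-dependent brake on SREBP and itself a target, fell from 132 ± 4.47 to 63.2 ± 15.9 CPM (log2 -1.06), with 770 counts in T47D-TR replicate 3 against 1475 and 1323. INSIG2, its relative, rose from 7.73 ± 0.621 to 24.0 ± 4.04 CPM (log2 1.64), and USF1, which binds E-boxes, fell slightly (-0.30). In the list of other synthesis and elongation genes 5 of 16 rose and 5 fell, again near the background. ACSL5, a further acyl-CoA synthetase, rose by 1.59, above any of the 3 members of that family, IDH1, a source of NADPH, by 0.83, while ELOVL7 (-2.34) and the dehydratase gene HACD3 (-0.43) fell.

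Lipid droplet and further glycerolipid genes rose in 15 of 22 tested members of their list and fell in 4, against 32.5% and 30.5% of all genes. CIDEC (log2 2.52) and PLIN1 (2.26), which act at the droplet surface, rose from levels near the detection limit, with 2 to 6 counts in each T47D library and 17 to 21 in each T47D-TR library, whereas CIDEB (-0.70) and AGPAT5 (-0.45) fell. CIDEC and PLIN1 are also on the list of adipocyte markers. Of 10 adipocyte markers 7 were in the table, with a summed level that ranged between 80.4 and 85.4 CPM for T47D and between 143 and 152 for T47D-TR. PLIN4 took 34.8 ± 2.01 and 90.7 ± 2.42 CPM of it. LPL, the largest part in T47D, was not called, at 42.2 ± 1.31 and 43.9 ± 3.66 CPM. GPD1, at 0.437 and 0.481 CPM, was not tested and its groups overlapped. ADIPOQ, LEP and CIDEA were not analysed here, and FABP4 had 0 counts in T47D and 41 over the T47D-TR libraries; the part of these markers in the result was not tested. Of the genes of fatty acid uptake and binding, 3 of 12 rose, with the lipoprotein receptor VLDLR (1.6) and the transporter SLC27A1 (0.96) highest, and 2 fell, FABP3 (-1.25) and GOT2 (-0.56), both counts below the background shares.

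Oxidation genes beyond the members were divided. Of 27 other mitochondrial oxidation genes 9 rose and 7 fell, near the background of 32.5% and 30.5%. CRAT, the carnitine acetyltransferase that buffers acetyl-CoA, rose most, from 108, 92 and 85 counts to 699, 763 and 626 (log2 2.90 ± 0.11, adjusted p by edgeR = 1.6e-10). CPT1B, the muscle form of the entry enzyme, rose by 1.17 from 3.61 ± 0.372 to 8.13 ± 0.833 CPM, opposite to CPT1A. BDH1, a ketone body enzyme (-0.60), and ECHS1, the short-chain hydratase (-0.44, from 87.8 ± 1.78 to 64.5 ± 2.67 CPM), fell. Of 19 peroxisomal genes 8 rose and 4 fell, 42.1% and 21.1% against the same background. ACOX2 had 2 counts over the T47D libraries and 80 over the T47D-TR libraries, a ratio of 40.7 (exact 95% interval 10.9 to 342), and PECR rose by 1.6. CROT, which makes carnitine esters in peroxisomes, had 36 counts in T47D and 0 in T47D-TR, at least 11.8-fold lower (taking 3 counts in all as the floor), and EHHADH fell by 0.62 on the log2 scale.

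PPAR partners, coactivators, targets and AMPK subunits rose in 13 of 24 tested genes and fell in 4, against 32.5% and 30.5% of all genes. ANGPTL4, a PPAR and hypoxia target that inhibits lipoprotein lipase, had 116, 115 and 101 counts in T47D and 467, 579 and 231 in T47D-TR (log2 1.95 ± 0.34). PDK1, the kinase that restrains pyruvate oxidation, rose by 1.68. The coactivator genes PPRC1 (-0.70) and PPARGC1B (-0.65) fell, while PPARA itself rose. These 7 lists share genes, and they were chosen with results of these data known.

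**Figure D5:**
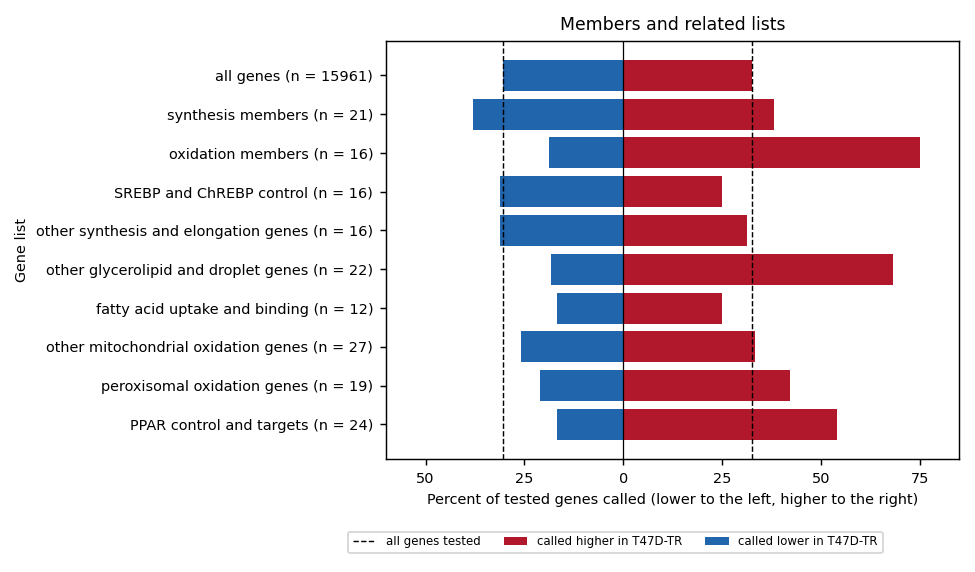
Percent of the tested genes of each list called higher (red, to the right) or lower (blue, to the left) in T47D-TR, with dashed lines at the shares over all 15961 genes tested. Oxidation members (75% higher) and droplet genes reach farthest to the right, while synthesis members extend alike to both sides at 38.1%.

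In the authors' deposited table, 28 of the 38 members had a false discovery rate under 0.05, 17 higher and 11 lower. All 28 were called here in the same direction. The authors' values and the calls here rest on the same libraries, so this match is not independent evidence. The share of all genes under the authors' cutoff is not given here. In the edgeR fit, 63.0% of all genes tested were called in either direction. The 3 called here only were ACADS, HADHB and HADH, at a false discovery rate of 0.106, 0.0924 and 0.124 in the authors' deposited table.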

How the data were processed

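Poly(A)-selected RNA of T47D and T47D-TR was sequenced in 3 libraries per group. The submitters' processing notes name HISAT2 2.1.0, DESeq and the build GRCh38. The sources used here give no counter, annotation or strand setting. The authors deposited, for each gene, whole-number counts of each library, a mean per group as normalized signal, a linear ratio of these means, its log2, and a p-value with its false discovery rate. Only counts entered the fits, and the authors' values are used where named. All per-library columns were used.

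Counts were tested with edgeR 4.0.16 (R 4.3.3): TMM scaling, filterByExpr (minimum count 10, minimum total 15), glmQLFit and glmQLFTest, 2-sided, Benjamini-Hochberg adjustment over 15961 genes, called under 0.05. CPM are given as mean ± SD (n = 3), and the SE of a log2 fold change comes from log2 CPM with a prior count of 2. Pair ratios added 0.5 to each count. Intervals and floors cover counting error only. Alternatives used limma 3.58.1 and DESeq2 1.42.0. The procedure was tested on simulated data. Gene positions come from RefSeq (GRCh38.p14, all 38 members matched by gene number) and exon lengths from GENCODE release 29.

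Members and lists were chosen with earlier results of these data known. The naming rule was that every member may be named, with counts per library for called members of at least 1.5-fold, pair members that were not called and the largest change in each role, and up to 2 called genes at each end of each other list; some counts beyond it are added.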

Additional observations from a re-analysis of the deposited data

How the results depend on the processing

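Over 14 alternatives, 26 to 31 of the 31 called members stayed called in the same direction, fewest without T47D replicate 3. The median log2 fold change of the synthesis genes, reported as 0.054, was 0.017 with library size alone, 0.029 with quantile normalization and voom, 0.077 by DESeq2, 0.083 with no filter, and 0.019 to 0.082 with one library left out. The median of all genes, 0.0019, was -0.035, -0.080, 0.0086 and 0.018 under the same 4 settings, -0.0043 for genes of at least 5 CPM, and -0.0028 to 0.0061 with one library left out. LPIN1, called in 0 of the alternatives, was -0.0097 with library size alone, -0.0028 with quantile normalization and -0.031 to 0.110 with one library left out, negative without T47D-TR replicate 2. No other tested member changed direction in these alternatives. The causes were not tested. Over all genes, 5186 higher and 4867 lower calls became 4827 and 5298 with library size alone and 4361 and 5789 with quantile normalization, where 10 oxidation genes in each were called higher. Oxidation genes called higher numbered 9 to 12 over all alternatives, synthesis genes called higher 7 to 10 and called lower 6 to 9. Same-numbered libraries deviated with correlations of -0.0051, -0.021 and -0.014, and libraries of unlike number with -0.0047 to 0.022. No deviation shared by number was visible, but such values cannot tell whether the libraries were prepared in pairs. With the replicate block 9954 genes were called and 11 oxidation genes were called higher, against 10053 and 12 without it. At this depth PLIN2 fell under the filter, and ACADS rested on 41 to 65 counts per library.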
